A study of Mus musculus with 10 samples.

Results

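The Wnt, fibroblast growth factor (FGF) and TGF-beta pathways carry signals between cells through secreted ligands and receptors at the cell surface. Wnt ligands bind Frizzled receptors with the co-receptors Lrp5 and Lrp6, and the canonical branch stabilises beta-catenin. FGF ligands bind receptor tyrosine kinases, except for a small group, Fgf11 to Fgf14, that stays inside the cell and binds voltage-gated sodium channels. TGF-beta, activin and BMP ligands bind receptor serine and threonine kinases, which phosphorylate Smad proteins. In the hypothalamus, these pathways pattern the tissue during development, and FGF receptor 1 is known for its part in the development of the neurons that make gonadotropin-releasing hormone. The arcuate nucleus and the anteroventral periventricular nucleus (AVPV) hold the kisspeptin neurons through which estradiol exerts negative and positive feedback on gonadotropin secretion, and estrogen receptor alpha (ERα) is the receptor for estradiol in these neurons.

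ERα binding was examined at 94 genes of these pathways, out of 21000 protein-coding genes with a curated RefSeq transcript in the mouse genome mm10. They are all the genes whose symbols begin as those of Wnt ligands, Frizzled receptors, FGF ligands and receptors, BMP ligands and receptors, TGF-beta ligands and receptors, activin receptors and Smads. By family there were 19 Wnt ligands, 10 Frizzled receptors, 22 genes with an FGF ligand symbol and 5 with an FGF receptor symbol. There were also 12 with a BMP ligand symbol, 3 BMP receptors, 4 with a TGF-beta ligand symbol, 5 with a TGF-beta receptor symbol, 6 activin receptors and 8 Smads. Selection by symbol takes in 5 genes with another known function, namely Fgfr1op2, Bmp2k, Tgfb1i1, Tgfbrap1 and Bmp1. None of these 5 had a peak. The FGF ligand symbols also take in the intracellular Fgf11 to Fgf14, of which Fgf12, Fgf13 and Fgf14 had peaks. A gene was counted as bound in a library when its start site was the nearest start site, of any coding or non-coding transcript, to the midpoint of at least 1 peak of that library. It was also counted with only such nearest peaks within 20 kb, and with only those at its promoter (1 kb before the start site to 100 bp after it).

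The peaks came from ERα ChIP-seq of the arcuate and the AVPV of female mice. In this assay an antibody pulls down the DNA held by a protein, and sequencing then shows peaks, which are places where reads pile up above their surroundings. In both groups the mice had been ovariectomised, carried an implant of 17β-estradiol (0.1 mg/mL) and had been given estradiol benzoate (0.05 mg/kg), and tissue was taken 28 h after that injection. There were 4 libraries of each nucleus, with no vehicle group, and all were made from pooled chromatin of whole dissected tissue, so that spread and tests are over libraries and may be technical. Arcuate lists hold 3251 to 4079 peaks and AVPV lists 2367 to 3347. No read counts underlie the lists used here, so a gene without a peak is not shown to be unbound, and fewer ERα-positive cells cannot be told apart from less binding in each cell. Peak lists also give no check of the dissected nuclei by marker genes. Greb1, a classical estrogen-responsive gene, was bound in 4 of 4 arcuate and 4 of 4 AVPV libraries.

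Overlapping peaks (by 1 bp or more) of any libraries were joined into 8072 regions, and 35 of these were assigned to 22 of the 94 genes. The estrogen response element was searched as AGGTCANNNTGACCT, which is its own reverse complement, with at most 2 mismatches among its 12 fixed bases and within 100 bp of the summit. The sequences below are from GRCm38 (mm10), forward strand, with the matched element in capitals, and lie under peaks of genes named below. The Wnt5b and Fgf12 sequences belong to regions that had peaks in all 4 libraries of one nucleus and in none of the other, and carried a match. The Fgf14, Fgf9, Bmp3 and Bmp2 sequences were chosen after their values were seen, as matches at genes named below.
Wnt5b, intron, chr6:119518828-119518948: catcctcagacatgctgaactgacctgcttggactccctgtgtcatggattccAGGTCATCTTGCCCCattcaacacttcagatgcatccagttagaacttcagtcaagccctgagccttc
Fgf12, intron, chr16:28254384-28254504: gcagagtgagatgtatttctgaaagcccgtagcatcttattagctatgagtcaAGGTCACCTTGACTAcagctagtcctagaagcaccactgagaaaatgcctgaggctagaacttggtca
Fgf14, promoter, chr14:124192943-124193063: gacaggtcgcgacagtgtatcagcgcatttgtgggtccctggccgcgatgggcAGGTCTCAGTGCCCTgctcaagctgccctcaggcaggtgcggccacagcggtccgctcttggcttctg
Fgf9, upstream, chr14:58060592-58060712: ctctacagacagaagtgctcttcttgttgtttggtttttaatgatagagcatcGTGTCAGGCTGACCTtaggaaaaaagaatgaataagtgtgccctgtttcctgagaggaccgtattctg
Bmp3, upstream, chr5:98831150-98831270: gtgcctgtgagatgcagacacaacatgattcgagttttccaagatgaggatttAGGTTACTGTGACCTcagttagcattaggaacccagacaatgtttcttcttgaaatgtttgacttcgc
Bmp2, far upstream, chr2:133413764-133413884: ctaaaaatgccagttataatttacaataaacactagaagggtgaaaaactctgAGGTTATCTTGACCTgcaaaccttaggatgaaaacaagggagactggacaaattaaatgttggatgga
The elements of Bmp3 and Bmp2 had 1 mismatch, and those of Wnt5b, Fgf12, Fgf14 and Fgf9 had 2.

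In each library, ERα peaks lay nearest to a small number of the pathway genes. The 4 arcuate libraries bound 12, 12, 9 and 8 of the 94 genes, or 10.9% ± 2.19 (SD, n = 4), and the 4 AVPV libraries bound 7, 4, 6 and 9, or 6.91% ± 2.21 (SD, n = 4). The lowest arcuate library, with 8, lay below the highest AVPV library, with 9, so the nuclei overlapped. Of all protein-coding genes, arcuate libraries bound 12.0% ± 0.89 (SD, n = 4) and AVPV libraries 9.69% ± 1.53 (SD, n = 4). The pathway genes lay below all genes in 2 of 4 arcuate libraries (-1.10 ± 1.74 percentage points, SD, n = 4) and in 4 of 4 AVPV libraries (-2.77 ± 2.54, SD, n = 4), that is in 6 of 8, by 1.94 ± 2.21 percentage points on average (SD, n = 8), which is less than the spread between libraries. Over the 8 libraries, 22 of the 94 genes (23.4%) were bound at least once, against 23.4% of all protein-coding genes. Of the 22, 11 were bound in arcuate libraries only, 2 in AVPV libraries only and 9 in both nuclei. Of the 4918 bound among all protein-coding genes, these numbers were 1655, 740 and 2523. At least 2 arcuate libraries bound 10 of the genes, where 12.6% of all genes were so bound, and at least 2 AVPV libraries bound 6, where 10.1% were. The arcuate lists are longer. With every list held to its 2367 strongest peaks, the arcuate libraries bound 6.25 ± 1.89 pathway genes (SD, n = 4) and the AVPV libraries 5 ± 1.41 (SD, n = 4).

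**Figure D1:**
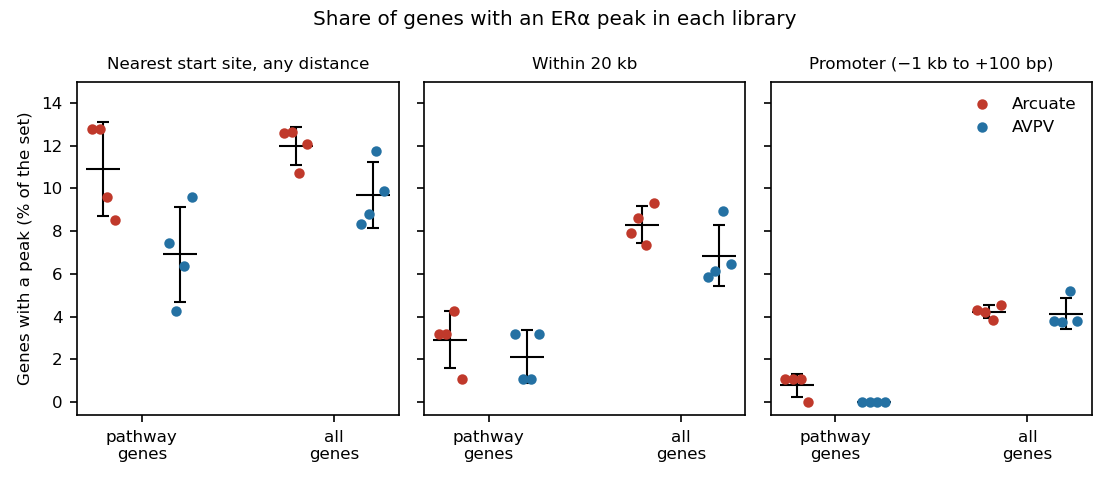
Percentage of the 94 pathway genes and of all 21000 protein-coding genes with an ERα peak, by the nearest start site, within 20 kb and at the promoter. Each point is a library (red, arcuate, and blue, AVPV, n = 4 each) and the bars are mean ± SD. In the first panel the pathway genes lie below all genes in 2 of 4 arcuate and 4 of 4 AVPV libraries, and below them in 8 of 8 libraries in the other panels.

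ERα peaks near the start sites of the pathway genes were few. Within 20 kb, the arcuate libraries bound 3, 3, 4 and 1 of the genes and the AVPV libraries 3, 1, 1 and 3. Over all libraries these were 7 of 94 genes (7.45%), against 16.9% of all protein-coding genes. The share of pathway genes was below that of all genes in 8 of 8 libraries, by 5.06 ± 2.11 percentage points (SD, n = 8). At promoters, Fgf14 alone had a peak by this rule (1 of 94 genes, 1.06%), against 9.63% of all genes. The difference (pathway genes minus all genes) was -3.79 ± 0.784 percentage points (SD, n = 8), again below in 8 of 8 libraries. A peak of arcuate library 3 lay 0.493 kb upstream of the Smad7 start site. It was not counted for Smad7, since the start site of the non-coding gene Gm20544 was nearer, at 0.216 kb. The 7 genes within 20 kb were Acvr2a, Fgf9, Fgf12, Fgf14, Fzd8, Tgfb2 and Wnt4.

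The regions of the pathway genes lay far from their start sites. The median distance from the centre of a region to the start site was 53.5 kb for the 35 regions, against 6.85 kb for the 6438 regions nearest to any protein-coding gene. Only 7 of the 35 (20%) lay within 20 kb. By position, 16 regions were intronic, often in a neighbouring gene, 16 were intergenic, and promoter, untranslated region and coding exon held 1 each. The promoter share was 2.86%, against 29.7% of the regions of all protein-coding genes. A response element was found in 15 of the 35 regions (42.9%). It was found in 28.8% of all 8072 regions and in 37.5% of the 6029 regions outside promoters, while windows moved by 5 kb held it in 1.62% of all regions and in 1 of the 35. A single library had a peak in 18 of the 35 regions (51.4%), against 41.5% of all regions.

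**Figure D2:**
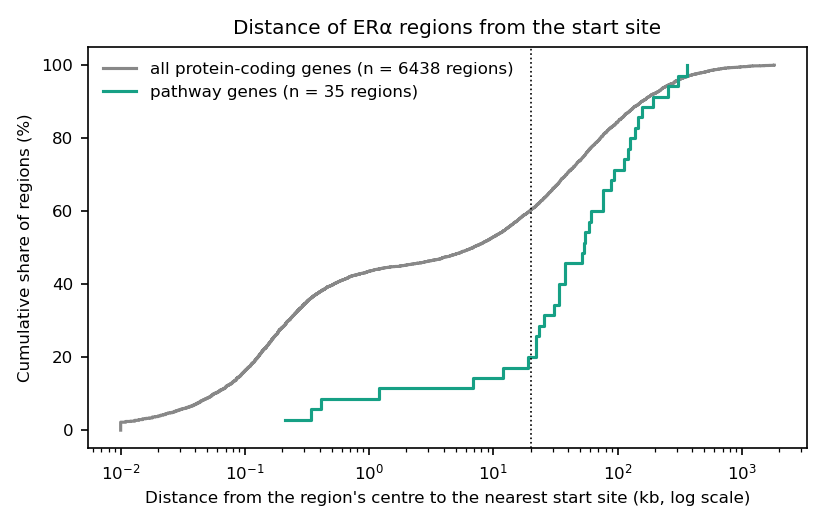
Cumulative percentage of ERα regions by the distance (kb, log scale) from their centre to the nearest start site, for the 35 regions of the pathway genes (green) and the 6438 regions of all protein-coding genes (grey). Distances under 0.01 kb are drawn at 0.01 kb, and the dotted line marks 20 kb, within which 20% of the pathway regions lie.

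Many of the pathway genes hold a long stretch of chromosome. This stretch is summed over all start sites of a gene, so it is not a count of neighbours. The stretch of chromosome over which a gene holds the nearest start site had a median length of 81.2 kb for the pathway genes and 42.5 kb for all genes, and a longer stretch takes in more peaks. All genes were divided by this length into 4 groups of equal size, and 46 of the 94 pathway genes fell in the group with the longest stretches, above 93.6 kb. In that group, 17 of 46 pathway genes (37.0%) and 37.4% of all genes were bound in at least 1 library. In the next longest group, 5 of 23 pathway genes (21.7%) and 22.2% of all genes were bound. In the shortest group 0 of 10 pathway genes were bound, against 16.6% of all genes, and in the next shortest 0 of 15, against 17.4%. Within 20 kb, the longest group had 6 of 46 pathway genes (13.0%) against 16.3% of all genes, and the next longest 1 of 23 (4.35%) against 17.7%. The similar overall share of 23.4% thus joins shares that lay close to all genes where the stretches were long and at 0 where they were short.

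By family, 15 of the 57 genes with ligand symbols (26.3%) were bound in at least 1 library, against 23.4% of all protein-coding genes. Peaks were nearest to 4 of 19 Wnt ligands (Wnt4, Wnt5a, Wnt5b and Wnt7b) and 5 of 22 FGF ligand genes (Fgf9, Fgf23 and the intracellular Fgf12, Fgf13 and Fgf14). They were also nearest to 4 of 12 BMP ligand genes (Bmp2, Bmp3, Bmp8a and Bmp8b) and 2 of 4 TGF-beta ligand genes (Tgfb2 and Tgfb3). Receptors were bound at 2 of 10 Frizzled genes (Fzd8 and Fzd10), 1 of 5 FGF receptor genes (Fgfr1), 1 of 3 BMP receptors (Bmpr1b), 1 of 6 activin receptors (Acvr2a) and 0 of 5 TGF-beta receptor genes. Of the signal transducers, 2 of 8 Smads were bound, Smad1, which acts below BMP receptors, and Smad3, which acts below TGF-beta and activin receptors. These families are too small to be ranked. The other 72 genes had no peak nearest to them in any library. Among them were the ligands Wnt1, Wnt3a, Wnt7a, Fgf2, Fgf8, Fgf10, Bmp4, Bmp7 and Tgfb1, the receptors Fgfr2, Fgfr3, Bmpr1a, Bmpr2, Acvr1, Acvr2b, Tgfbr1 and Tgfbr2, and Smad2, Smad4 and Smad7.

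**Figure D3:**
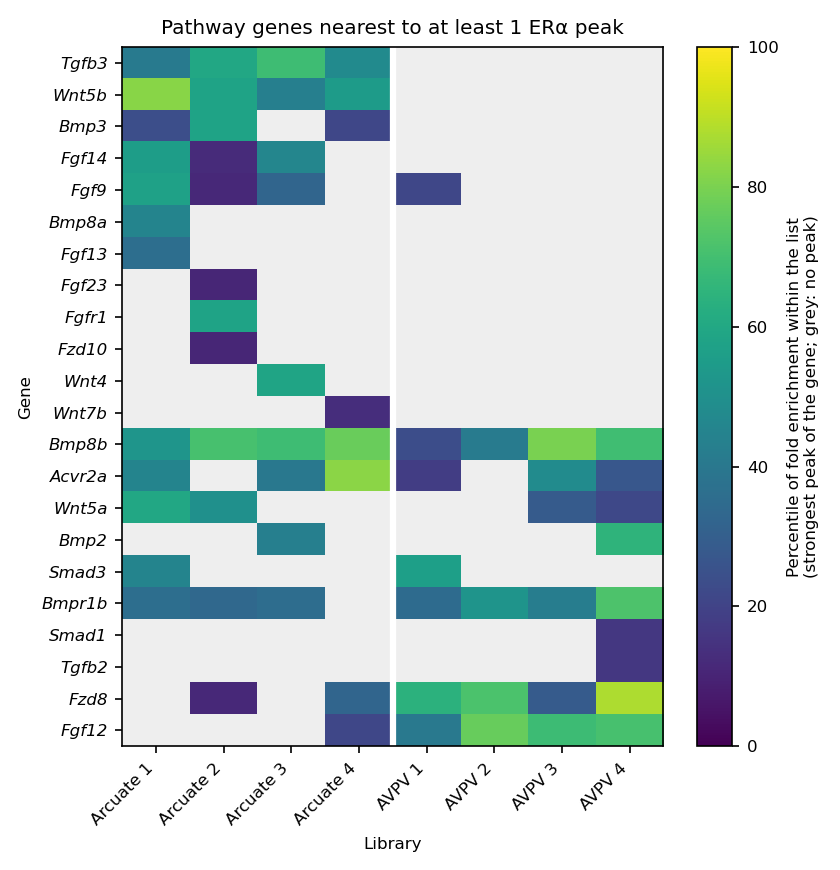
The 22 bound pathway genes (rows) in the 8 libraries (columns), ordered from more arcuate to more AVPV libraries. Colour gives the percentile of fold enrichment of the strongest peak within its own list, and grey marks no peak. Tgfb3 and Wnt5b are filled in the 4 arcuate columns alone, Bmp8b is filled in all 8, and Fgf12 is filled in the 4 AVPV columns and in arcuate library 4.

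Tgfb3 and Wnt5b were each bound in 4 of 4 arcuate libraries and in 0 of 4 AVPV libraries. Such a pattern was seen in 0.405% of all protein-coding genes, and the reverse pattern, which no pathway gene had with the full lists, in 0.119%. Without arcuate library 4, 4 pathway genes were bound in every library of one nucleus and in 0 of the other, since Fgf14 (arcuate) and Fgf12 (AVPV) were added. With lists of equal length, Wnt5b stayed at 4 against 0, Tgfb3 lost 1 arcuate library, and Fgf12 had 0 arcuate and 4 AVPV libraries. For a single gene, 4 libraries against 0 gives p = 0.0286 (exact two-sided Fisher's test), the smallest that this design allows. Over the 4918 bound genes, the Benjamini-Hochberg adjusted value was 1 for both, as it was for every other gene tested. No gene passed after adjustment, and 110 had an unadjusted p below 0.05, among which were 2 of the 22 pathway genes tested, Tgfb3 and Wnt5b.

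Tgfb3 encodes a secreted TGF-beta ligand. Its start site lies on chromosome 12 on the reverse strand, and the region shared by the arcuate libraries, chr12:86025416-86025737, lay 53.5 kb downstream of it, in an intron of the neighbouring gene Ttll5. The fold enrichments over the local background were 5.64, 6.57, 7.82 and 5.77 in arcuate libraries 1 to 4, or 6.45 ± 0.998 (SD, n = 4), and these peaks stood at percentiles 40.7, 59.95, 69.0 and 48.0 of their own lists. They were thus of middling strength among the peaks of each library. The start site of Ift43 lay on the same side, a little beyond that of Tgfb3, at 57.0 kb. The assignment thus rests on a small difference in distance. No response element was found there within the limit of 2 mismatches. The remaining 3 regions of Tgfb3, also in Ttll5, were each seen in 1 arcuate library.

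Wnt5b encodes a Wnt ligand that mostly signals without beta-catenin. Its region, chr6:119518690-119519052, lay in an intron of Wnt5b itself, 25.5 kb downstream of a start site. Arcuate libraries 1 to 4 had fold enrichments of 10.01, 6.46, 5.86 and 6.13 there, or 7.11 ± 1.94 (SD, n = 4). Library 1 was higher than the others, and the peaks ranged from percentile 43.2 to percentile 82.4 of their lists. The response element printed above, with 2 mismatches, lay 65 bp from the summit.

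Fgf12 showed the opposite distribution, with 4 AVPV libraries and 1 arcuate library (exact two-sided Fisher's test, p = 0.143, adjusted over the 4918 genes 1). It encodes one of the intracellular FGF homologous factors that bind sodium channels. The region chr16:28254282-28254571, in an intron of Fgf12 192 kb from the nearest start site, had fold enrichments of 5.49, 5.20, 7.51 and 8.23 in AVPV libraries 1 to 4, and no arcuate library had a peak there. Its response element, printed above, lay 7 bp from the summit. A second intronic region, chr16:28545366-28545708, lay 19.0 kb from an internal start site and had fold enrichments of 5.75, 9.25 and 8.51 in AVPV libraries 1, 2 and 4, with no peak in the arcuate. The single arcuate peak, in library 4, was at another region and had a fold enrichment of 4.69. For Fgf12, the share of arcuate minus the share of AVPV libraries was -0.75. It was 0 with 1 start site per gene and 0 with protein-coding start sites only, so this distribution depends on the start sites used. Among all 8072 regions, 2.13% had peaks in 4 arcuate and 0 AVPV libraries, as did 2 of the 35 pathway regions, and 0.818% had the reverse, as did 1 of the 35.

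The paralogue Fgf14 and the secreted ligand Fgf9 had peaks in more arcuate than AVPV libraries; they, Bmp3 and the genes in the next paragraph except Acvr2a are described after their values were seen. Fgf14 was bound at a promoter, 0.409 kb upstream of an internal start site, with fold enrichments of 6.58, 4.20 and 5.95 in arcuate libraries 1 to 3 and no peak in arcuate library 4 or the AVPV (exact two-sided Fisher's test of 3 libraries against 0, p = 0.143). Fgf9 had a region 12.0 kb upstream with fold enrichments of 4.27, 4.05 and 5.43 in arcuate libraries 1 to 3 and of 4.87 in AVPV library 1. Bmp3, which encodes a BMP family ligand known to oppose other BMPs, was bound in arcuate libraries 1, 2 and 4, but not at the same place. Libraries 1 and 2 had a region 23.2 kb upstream, at fold enrichments of 4.88 and 6.46, and library 4 had another 61.3 kb downstream, at 4.69. None of these 3 genes had an unadjusted p below 0.05. The share of arcuate minus the share of AVPV libraries, 0.75 for Fgf14 and for Bmp3, was 0.25 for Fgf14 with 1 start site per gene, and 0.25 for Bmp3 with lists of equal length or with fold enrichments above 5.

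Other genes were bound in both nuclei. Bmp8b, a BMP ligand known for regulating energy expenditure, was bound in all 8 libraries, a pattern shown by 4.16% of all protein-coding genes and by no other pathway gene. Its region, chr4:123071353-123071857, was intergenic and 33.6 kb upstream, nearer to Bmp8b than to Oxct2b at 44.6 kb, and held no response element within the limit. The fold enrichments were 6.38, 7.62, 7.82 and 8.30 in the arcuate, or 7.53 ± 0.817 (SD, n = 4), and 4.97, 5.78, 9.70 and 8.23 in the AVPV, or 7.17 ± 2.18 (SD, n = 4). The AVPV values spanned those of the arcuate. Acvr2a, a type II receptor for activin, had a region in its 5′ untranslated region, 0.210 kb downstream of the start site. Fold enrichments there were 5.64, 5.71 and 9.38 in arcuate libraries 1, 3 and 4 and 4.71, 5.95 and 5.11 in AVPV libraries 1, 3 and 4, so that the nuclei overlapped. A second region of Acvr2a, 147 kb upstream, had peaks in arcuate libraries 1 and 3, at 5.90 and 4.91, and none in the AVPV. Bmpr1b, a type I BMP receptor, was bound in 3 arcuate and 4 AVPV libraries. Its main region, 112 kb downstream in an intron of Unc5c, had fold enrichments of 5.39, 3.94 and 5.54 in arcuate libraries 1 to 3 and 6.36, 5.63 and 8.66 in AVPV libraries 2 to 4. There, all AVPV peaks were higher than all arcuate peaks. Fzd8, a Frizzled receptor, was bound in 2 arcuate and 4 AVPV libraries. Its intergenic region lay 255 kb upstream and had fold enrichments of 7.58, 8.38, 5.01 and 13.1 in the AVPV and of 5.10 in arcuate library 4. The other arcuate peak of Fzd8, in library 2, lay in its coding exon 0.339 kb downstream of the start site. Wnt5a, a relative of Wnt5b, was bound in 2 libraries of each nucleus.

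**Figure D4:**
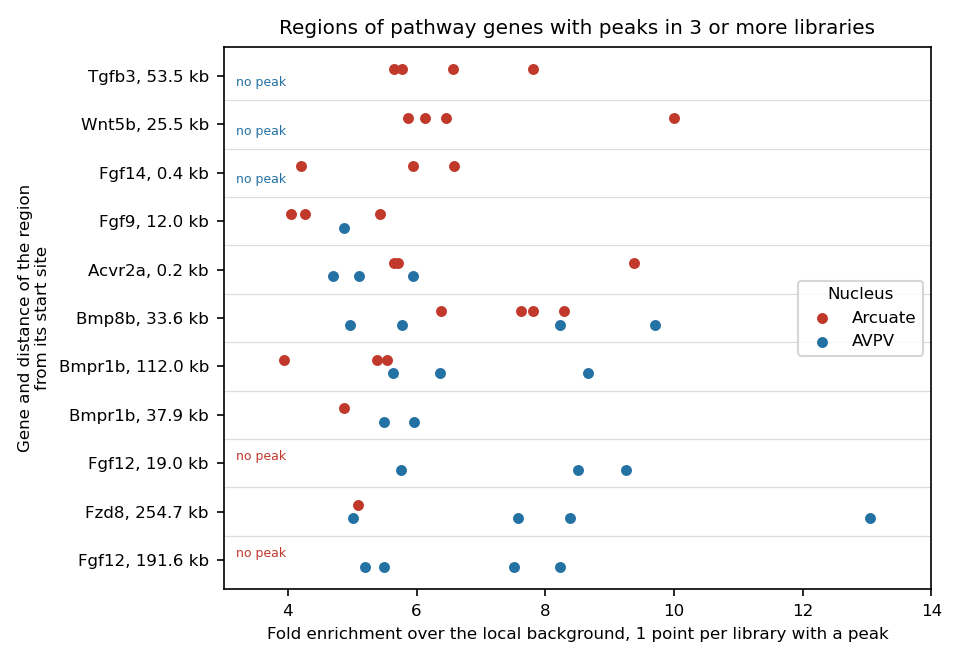
Fold enrichment over the local background at 11 regions of pathway genes with peaks in 3 or more libraries, with the distance of the region from the nearest start site. Each point is a library with a peak (red, arcuate, and blue, AVPV), and a nucleus with none is marked. The Tgfb3, Wnt5b and Fgf14 regions show red points alone and both Fgf12 regions blue points alone, while at Bmp8b the colours overlap.

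Peak strength was compared between the nuclei by limma at the regions with a peak in all 8 libraries, on the log2 fold enrichment after quantile normalisation. Of 1089 regions, 243 (22.3%) had an adjusted p below 0.05, 119 higher in the arcuate and 124 higher in the AVPV. With percentiles of fold enrichment in place of log2 values, 129 regions passed, and 90 of these were higher in the arcuate and 39 in the AVPV. The 1 pathway region among the 1089 was that of Bmp8b, with a log2 difference (arcuate minus AVPV) of 0.09 (SE 0.22, limma adjusted p = 0.802). When at least 3 of 4 libraries of each nucleus were required and missing values were left out, 1577 regions were compared and 285 passed. The pathway regions then added were that of Acvr2a, at 0.34 (SE 0.26, limma adjusted p = 0.395), and that of Bmpr1b, at -0.44 (SE 0.25, limma adjusted p = 0.226). For the 3 regions, no difference in strength was detectable with 4 libraries of each nucleus at Bmp8b and 3 of each at Acvr2a and Bmpr1b.

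The choice of start sites decided which gene some strong regions were assigned to. Where a non-coding RNA starts between a region and the nearest protein-coding gene, the rule gives the region to the non-coding RNA. With start sites of protein-coding transcripts only, 24 of the 94 pathway genes (25.5%) and 26.3% of all genes were bound in at least 1 library. The arcuate libraries then bound 14.25 ± 3.86 (SD, n = 4) and the AVPV libraries 9.25 ± 1.71 (SD, n = 4) of the 94. Of all 21000 genes, they bound 2929 and 2370 on average, so the pathway share was higher in the arcuate and lower in the AVPV. The difference from all genes over the 8 libraries was -0.12 ± 3.16 percentage points (SD, n = 8). Fgfr1, the FGF receptor named above, went from 1 arcuate library to all 8 libraries, and Fgf12 from 5 libraries to all 8. Smad7, an inhibitory Smad, went from 0 libraries to 3 arcuate and 4 AVPV libraries, and Tgfbr2, the type II TGF-beta receptor, from 0 to 3 arcuate libraries. Tgfb2, a TGF-beta ligand, went from 1 AVPV library to 2 arcuate and 3 AVPV libraries. These genes are named after their values were seen.

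Among these were 3 regions with a peak in all 8 libraries, shown here because of their strength and their response elements, which had 0, 1 and 2 mismatches in the order given (GRCm38, forward strand, element in capitals).
Fgf12, 356 kb downstream, chr16:28089527-28089647: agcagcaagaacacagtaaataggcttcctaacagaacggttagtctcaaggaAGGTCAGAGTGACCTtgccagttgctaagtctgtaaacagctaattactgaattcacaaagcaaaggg
Fgf12, 314 kb downstream, chr16:28132471-28132591: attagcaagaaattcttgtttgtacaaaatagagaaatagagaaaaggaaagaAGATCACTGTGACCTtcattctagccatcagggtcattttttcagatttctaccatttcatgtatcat
Fgfr1, 130 kb upstream, chr8:25388929-25389049: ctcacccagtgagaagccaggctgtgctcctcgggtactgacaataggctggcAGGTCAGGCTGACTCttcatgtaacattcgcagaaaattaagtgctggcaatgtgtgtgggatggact
At the first, between Fgf12 and the non-coding gene Gm10823, arcuate libraries 1 to 4 had fold enrichments of 15.8, 19.2, 13.96 and 11.2, and the AVPV had 25.9, 21.7, 30.4 and 39.0 in the same order. Every AVPV value was higher than every arcuate value, with a log2 difference (arcuate minus AVPV) of -0.97 (SE 0.17, limma adjusted p = 4.4e-05). At the second, the values ranged from 6.75 to 10.8 in the arcuate and from 5.95 to 9.94 in the AVPV, and the log2 difference was -0.03 (SE 0.23, limma adjusted p = 0.95). The region upstream of Fgfr1, whose nearest start site of any kind was that of 5430421F17Rik at 82.7 kb, had fold enrichments of 16.7, 16.5, 16.9 and 13.3 in the arcuate and of 7.35, 7.04, 11.1 and 10.4 in the AVPV. Here every arcuate value was higher than every AVPV value, with a log2 difference of 0.83 (SE 0.20, limma adjusted p = 0.0020). Both differences passed with the other normalisations and without each library in turn, and which gene these regions act on was not measured.

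The other genes of the 3 pathways are co-receptors, antagonists, intracellular transducers and further ligands. By the nearest start site and at promoters, their shares lay near those of all protein-coding genes. These were slightly lower when counted in at least 1 library and slightly higher when averaged per library. Within 20 kb the shares were lower by both counts. Of 150 listed genes, 148 were found, and 34 of these (23.0%, against 23.4% of all genes) were bound in at least 1 library, 18 (12.2%, against 16.9%) within 20 kb and 12 (8.11%, against 9.63%) at the promoter. Per library, the mean share of the 148 genes was 11.6% ± 2.59 by the nearest start site (SD, n = 8), against 10.8% ± 1.69 of all genes. It was 6.17% ± 1.79 within 20 kb, against 7.58% ± 1.33, and 4.56% ± 0.938 at promoters, against 4.19% ± 0.506. By pathway, 15 of 55 Wnt genes (27.3%), 10 of 28 FGF genes (35.7%) and 9 of 65 TGF-beta genes (13.8%) were bound in at least 1 library. Promoter peaks were present in all 8 libraries at Lrp6, the Wnt co-receptor, at Gsk3a, a kinase of the beta-catenin destruction complex, at Bcl9l, a cofactor of beta-catenin, at Spred1, an inhibitor of Ras signalling, and at Gdf1, a TGF-beta family ligand that shares its start site with Cers1. The fold enrichments at these promoters ranged from 6.28 to 18.8 at Lrp6, from 5.52 to 15.7 at Gsk3a, from 2.78 to 8.39 at Bcl9l, from 8.09 to 29.9 at Spred1 and from 6.26 to 15.0 at Gdf1. None of the 5 held a response element within 2 mismatches. Spred1 had 17.4, 16.4, 21.5 and 29.9 in the arcuate and 8.09, 11.1, 12.5 and 9.16 in the AVPV, so that the nuclei did not overlap, and the log2 difference (arcuate minus AVPV) was 1.02 (SE 0.19, limma adjusted p = 0.00016). Gdf1 was also higher in the arcuate, by 0.76 (SE 0.21, limma adjusted p = 0.0094), and Bcl9l was higher in the AVPV, with a log2 difference of -0.87 (SE 0.22, limma adjusted p = 0.0038). Lrp6 and Gsk3a had log2 differences of 0.02 (SE 0.25, limma adjusted p = 0.969) and -0.45 (SE 0.22, limma adjusted p = 0.148). In all, 9 of the 148 genes (6.08%) were bound in all 8 libraries, against 4.16% of all genes. Each had a region with peaks in all 8 libraries, and 5 of these 9 regions passed. Of all 1089 such regions, 22.3% passed. The other two that passed, named after their values were seen, were 66.8 kb from Tle3, a co-repressor of the Wnt pathway, at 0.71 (SE 0.20, limma adjusted p = 0.0089), and 102 kb from Kl, a co-receptor of FGF23, at -0.69 (SE 0.22, limma adjusted p = 0.017). Of the 4 such regions outside promoters, those of Tle3 and Hs2st1 held a response element with 1 mismatch. Among all protein-coding genes, 0.405% had 4 arcuate and 0 AVPV libraries. The 1 such gene among the 148 was Inhbb, the beta B subunit of activin and inhibin. Its region lay 9.66 kb upstream, was intergenic, had a response element with 2 mismatches, and showed fold enrichments of 6.69, 8.28, 6.76 and 6.12 in arcuate libraries 1 to 4.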

How the data were processed

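The authors aligned 75-nt reads to mm10 with Bowtie2 2.5.0 and called peaks in each library with MACS2 2.2.7.1 at a false discovery rate of 5%; deepTools 3.5 is also named in the submitters' processing notes. For every peak, the deposited lists give a score, a fold enrichment (its ratio to the local background), a −log10 p-value and a −log10 q-value. The score was not used, and the fold enrichment and −log10 values deposited described, ranked or filtered peaks. Libraries were grouped by the nucleus in the labels, and no peak was identical in 2 libraries. Depth was not taken from the lists, and their length limits the precision.

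Peak midpoints were assigned to the nearest start site of 45756 curated RefSeq transcripts of GRCm38.p6 (all genes that tied were counted). Regions were classed in the order promoter, termination site, untranslated region, coding exon, intron and intergenic. Genes were tested by exact Fisher's test with Benjamini-Hochberg adjustment, and regions in all 8 libraries by limma 3.58.1 (R 4.3.3) with an intensity trend. On 1089 simulated regions, of which 200 changed by 1 on the log2 scale, this fit recovered 91.5%, and 10.3% of its calls were false. In a check of the pattern alone, 200 of 200 elements planted in random sequence were found. Each was planted within the mismatch limit used to look for it, so the outcome was fixed in advance. It does not test the search around the summits. Alternatives were the summit, other start sites, distance, peak thresholds, equal lists, gene sets, normalisation, merging, a replicate block and the omission of each library in turn.

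The members and the lists of other pathway genes were chosen with earlier results of these data known. Genes named with values were those bound in all 4 libraries of a nucleus with a difference of at least 3 libraries, those with a region within 20 kb and peaks in at least 6 libraries, those with an adjusted limma p below 0.05 and those with 4 or more regions. Of the other pathway genes, those with 4 libraries against 0 and those with a region within 20 kb in all 8 libraries were named. Others are said to be chosen after their values were seen. Python 3.11.15, numpy 2.4.6, pandas 2.3.3, scipy 1.17.1, pysam 0.24.0 and matplotlib 3.10.9 were used. Input libraries were not analysed here, and the position and sequence of 1 region with peaks in 3 libraries are not reported here.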

Additional observations from a re-analysis of the deposited data

Results flagged for a closer look

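In 17 groups of 4 libraries, the gap of the highest or lowest library to its nearest neighbour was taken as a share of the range. It was above Dixon's 95% critical value in 2, and for measured values chance flags about 1 group in 20. Some groups hold the fold enrichments and the percentiles of the same peaks, so the groups are not independent. Arcuate library 4 had 0 pathway genes with a promoter peak where arcuate libraries 1 to 3 had 1 each (Fgf14). With counts of only 0 and 1, a lone library is always flagged, so this flag carries no weight. The Wnt5b region had a fold enrichment of 10.01 in arcuate library 1, and the next was 6.46.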

How the results depend on the processing

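Averaged over the 8 libraries, the share of pathway genes stayed below that of all genes under every alternative run. The difference was smallest with protein-coding start sites only, at -0.12 ± 3.16 percentage points (SD), and was -5.06 within 20 kb. With protein-coding start sites only, the mean arcuate share was above that of all genes (14.25 of 94 against 2929 of 21000). The mean AVPV share was below it (9.25 of 94 against 2370 of 21000). The mean number of pathway genes bound in the arcuate was 8 with fold enrichments above 5, 6.25 with lists of equal length, 14.25 with protein-coding start sites only and 2.75 within 20 kb, and that in the AVPV was 9.25 with protein-coding start sites only and 2 within 20 kb. Genes with 4 libraries of one nucleus and 0 of the other numbered 2, 0 within 20 kb, and from 2 to 4 when a library was left out, with 4 without arcuate library 4 (3 without arcuate library 3). It was 3 with fold enrichments above 5 or -log10 q of at least 5, where Fgf12 joined (0 arcuate, 4 AVPV libraries), and 2 with lists of equal length, where Fgf12 joined and Tgfb3 was lost. Fzd8 reversed within 20 kb, where the share of arcuate libraries minus that of AVPV libraries was 0.25 in place of -0.50. For Fgf12 this difference was 0 in place of -0.75 with 1 start site per gene or with protein-coding start sites only. The count of 243 regions that differed by limma was 129 with percentiles (69.8% higher in the arcuate, against 49.0%), and from 175 to 253 when a library was left out. With a replicate block it was 232. Libraries of the same number did not deviate together (correlations of 0.097, -0.014, 0.047 and -0.299), so the numbers were not taken as pairs. Libraries of unlike number had correlations from -0.34 (arcuate 1 with AVPV 3) to 0.35 (arcuate 4 with AVPV 3). A pairing under another numbering was not tested. AVPV libraries are numbered by their labels, and the deposited lists of the AVPV carry other numbers. No region that the nearest start site of any kind gives to a pathway gene passed under any of these fits, whereas with protein-coding start sites only the Fgfr1 region and the Fgf12 region 356 kb downstream passed. The cause of these shifts was not tested, beyond the shorter lists and fewer start sites that the alternatives use.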
